A study of Mus musculus with 14 samples.

Results

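The genes described here are 47 genes of DNA replication and cell division in Ocy454 cells, a mouse osteocyte-like cell line. They were taken by symbol as 2 lists, 24 genes of the G1/S phase, from Mcm2 to Slbp, which carry out DNA replication, and 23 genes of the G2/M phase, from Mki67 to Cdca8, which carry out mitosis. The rule takes genes by symbol and uses no measured value. The lists were drawn up with earlier results of these data known. All 47 were found among the 39179 genes of the differentiation table and the 35886 genes of the sorted libraries, and all 47 passed the filter on low values in both. The phases are reported separately.

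A cell that commits to divide first copies its DNA and then separates the copies. In G1, the MCM complex is loaded onto replication origins by Cdc6 and Cdt1, and it becomes an active helicase when Cdc45 and the GINS complex join it. E2F transcription factors, held in check by Rb, switch on this set of genes together with cyclin E and the enzymes that make deoxynucleotides. In G2, the MuvB complex with B-Myb and FoxM1 switches on cyclins A and B, Cdk1 and the kinases, motors and checkpoint proteins of the spindle, and the same core as part of the DREAM complex represses them in resting cells. Ubiquitination by the anaphase-promoting complex, with Cdc20 and Ube2c, then ends mitosis. Osteocytes are the terminally differentiated cells of the bone matrix and are not known to divide, and these genes are widely used as markers of cycling cells.

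The study compared Ocy454 cells over a differentiation course, and cells of high against low surface CD61, the integrin β3 chain encoded by Itgb3. Ocy454 is 1 immortalized line and carries a thermosensitive large T antigen, so all libraries share that background. Cells were grown at 33 °C and differentiated at 37 °C, and no other agent or genotype differed between the groups. Of the 8 libraries of the course, 2 come from each of days 1, 7, 10 and 14 at 37 °C. The labels number them as replicates 1 and 2, and the study's methods call them biological duplicates. For the sort, live single cells were stained for CD61 after 17 days at 37 °C by the labels, and the 10% with the lowest and the 10% with the highest signal were collected as CD61 low and CD61 high, with 3 libraries each. For these 6 the study's methods describe 3 independent groups of cells, and p-values measure the spread between these libraries. No growth-state control kept at 33 °C and no measurement of the cell cycle itself was analysed here.

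Recovered reads ranged from 27518605 to 34311238 per library in the course, and estimated counts from 18815602 to 19220064 in the sort. Itgb3 checked the sort labels, with 5.31 to 6.10 in the CD61 low and 100.1 to 130.1 in the CD61 high libraries, in CPM (reads of a gene scaled to a fixed library total, here with factors from TMM, the trimmed mean of M values). Of the 13 osteoblast and osteocyte markers 12 were tested. From day 1 to day 14, 10 rose and 2 fell (Col1a1 and Pdpn), beside 36.2% and 39.8% of all genes. In CD61 high cells 11 were higher and 1 was lower (Pdpn), beside 26.3% and 23.8% of all genes. The summed level of the 13 markers, 71.8% to 95.8% of it from Col1a1, was 51766 to 54473 CPM in CD61 high and 18063 to 22031 in CD61 low libraries. In the course it was 36268 and 36218 CPM on day 1, 28151 and 30289 on day 10, and 36661 and 31543 on day 14. Endothelial and adipocyte markers were low, with summed levels of at most 0.383 CPM for 4 endothelial genes and 0.117 for 4 adipocyte genes, and with Emcn, Cidec and Lep at 0 in every library. The 5 macrophage genes summed to 1.71 to 4.93 CPM in the course, 12.3 to 15.4 in CD61 low and 7.59 to 8.68 in CD61 high libraries, with Adgre1 at 0 throughout. Most of each sum was Cd68. Its share was smaller on day 1, with Cd68 at 1.59 and 1.73 CPM of sums of 2.45 and 2.23, and Csf1r at 0.827 and 0.439. Of the chondrocyte markers, Acan and Sox9 were not low, while Col2a1 was at most 2.48 CPM and Col9a1 at most 1.25 CPM in any library. Most of each chondrocyte sum in the sort was Sox9, at 32.3 to 40.4 CPM in CD61 low and 88.1 to 101.1 in CD61 high libraries. The 4 chondrocyte genes summed to 66.6 and 67.9 CPM on day 10, 121.8 and 102.7 on day 14 and 76.2 to 81.4 on days 1 and 7. In the sort they summed to 37.5 to 47.3 CPM in CD61 low and 97.2 to 113 in CD61 high libraries, where 2 of the 3 tested were higher. Whether counting used the strand of a read is not given in the sources used here. In the GENCODE M39 annotation, 12 of the 47 genes share at least 10% of their exon bases with another gene, and 3 share at least 50%, all 3 with genes on the other strand: Gins2 at 67.3% under Gse1, Fen1 at 65.9% under Tmem258 and Gm10143, and Chaf1a at 51.0% under Ubxn6. Values of these 3 genes are uncertain. Fen1 in particular read between 7.14 and 8.77 CPM in the course and between 65.0 and 76.3 CPM in the sort, and the part of the 2 counting methods in this was not tested.

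The promoters of the members differ in short sequences associated with their phase. RefSeq promoter sequences (build GRCm38.p6, 250 bases before to 50 after the start) were at hand for 39 of the 47 genes, 20 replication and 19 mitosis genes, and for 27025 genes in all. On both strands, 3 motifs were searched: E2F, written TTTNNCGC with both N being C or G, the cell cycle homology region or CHR, written TTTGAA or TTCGAA, and the CCAAT box, written CCAAT. A match of TTCGAA reads alike on both strands, matches of E2F on opposite strands can overlap, and a gene counts once however many matches or starts it has. An E2F match was held by 8 of the 20 replication genes (Cdc6, Cdt1, Mcm3, Mcm5, Mcm6, Mcm7, Pola1 and Uhrf1), or 40%, by 1 of the 19 mitosis genes (Cdk1), or 5.26%, and by 2.60% of all genes. A CHR match was held by 15 of the 19 mitosis genes, or 78.9%, by 4 of the 20 replication genes, or 20%, and by 21.7% of all genes. The CCAAT box was held by 17 mitosis genes, or 89.5%, 14 replication genes, or 70%, and 41.1% of all genes. All 15 mitosis genes with a CHR match also held a CCAAT box, a pair found in 8.61% of all genes. In 10 mitosis genes a CHR match began 2 to 40 bases after the start, so the share with a match in the 250 bases before the start alone was 36.8%, against 19.6% of all genes. These matches describe the letters only and are not binding sites.

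The 150 bases before the start are printed for 3 replication genes that hold an E2F match there, the helicase subunit Mcm6 (chr1:128359706-128359855, minus strand), the loader Cdc6 (chr11:98908001-98908150, plus strand) and the polymerase subunit Pola1 (chrX:93632156-93632305, minus strand), and for 3 mitosis genes that hold a CHR match there, the mitotic exit factors Cdc20 (chr4:118437344-118437493, minus strand) and Ube2c (chr2:164769779-164769928, plus strand) and the mitotic kinase Cdk1 (chr10:69352913-69353062, minus strand). They were picked as examples after the motif search. Capitals mark matches of E2F, CHR and CCAAT on either strand, so that ATTGG is CCAAT and TTCAAA is TTTGAA read on the opposite strand. Each runs 5′ to 3′ on the strand of its gene and ends at the base before the start.
Mcm6: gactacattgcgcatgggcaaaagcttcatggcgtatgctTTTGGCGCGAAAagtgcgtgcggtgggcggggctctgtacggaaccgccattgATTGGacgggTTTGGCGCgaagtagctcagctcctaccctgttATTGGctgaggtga
Cdc6: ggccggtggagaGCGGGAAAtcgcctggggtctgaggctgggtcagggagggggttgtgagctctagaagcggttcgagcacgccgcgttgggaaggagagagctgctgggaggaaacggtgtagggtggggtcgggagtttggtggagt
Pola1: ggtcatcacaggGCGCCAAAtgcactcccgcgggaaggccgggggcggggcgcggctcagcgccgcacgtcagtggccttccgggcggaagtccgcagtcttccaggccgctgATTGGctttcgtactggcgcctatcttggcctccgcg
Cdc20: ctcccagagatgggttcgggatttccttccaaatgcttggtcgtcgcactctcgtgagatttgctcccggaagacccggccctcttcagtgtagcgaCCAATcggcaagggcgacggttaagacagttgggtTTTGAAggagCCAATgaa
Ube2c: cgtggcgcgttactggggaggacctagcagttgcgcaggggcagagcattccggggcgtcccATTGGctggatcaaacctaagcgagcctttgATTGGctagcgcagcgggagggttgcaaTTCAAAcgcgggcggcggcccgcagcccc
Cdk1: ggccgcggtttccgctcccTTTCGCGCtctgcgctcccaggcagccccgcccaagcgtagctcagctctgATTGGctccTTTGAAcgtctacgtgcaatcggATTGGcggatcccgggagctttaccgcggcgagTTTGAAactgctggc

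Levels of different genes were compared only per length. In the sorted cells, mean TPM (transcript level corrected for length and scaled to a fixed total) over the 6 libraries ran from 8.49 for Ccne1 to 344 for Pcna among the replication genes, with a median of 100.2, and from 17.8 for Ttk to 269 for Ube2c among the mitosis genes, with a median of 57.9. The median member of these lists stood at the 91.1 percentile of all genes with a count for replication and at the 83.7 percentile for mitosis, so both machineries were well above the typical transcript at 17 days. Divided by the deposited gene length, day 1 levels in the course ran from 2.00 CPM per kb for Fen1 to 173 for Mcm6, with a median of 36.4, among the replication genes. Among the mitosis genes they ran from 8.10 CPM per kb for Ccnb1 to 80.8 for Cdc20, with a median of 28.6. At day 14 the medians were 36.3 and 25.8 CPM per kb, so transcripts of both phases were still present after 14 days at 37 °C.

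Summed per length, the phases took different paths. The replication sum was 1246 and 1251 CPM per kb in the day 1 libraries, 1403 and 1402 on day 7, 1345 and 1318 on day 10, and 1233 and 1249 on day 14. For mitosis it was 769.5 and 760.1 CPM per kb on day 1, 686 and 687 on day 7, 559 and 554 on day 10, and 723 and 725 on day 14. Mitosis transcripts were thus lowest at day 10 and stood at day 14 just under both day 1 libraries, while replication transcripts were highest at day 7. The ratio of the mitosis to the replication sum, which does not depend on the library total, was 0.618 and 0.607 on day 1, 0.489 and 0.490 on day 7, 0.416 and 0.420 on day 10, and 0.587 and 0.580 on day 14. In the sort, the ratio of TPM sums was 0.456, 0.464 and 0.492 in the CD61 low libraries and 0.729, 0.795 and 0.795 in the CD61 high libraries. All 3 CD61 high libraries therefore lay above all 3 CD61 low libraries, and they did so as well without the long genes Mki67 and Cenpf, at 0.671 to 0.754 against 0.433 to 0.461. These ratios are given as a description with no test. In bulk RNA, fewer cells in a phase and less RNA per cell of that phase cannot be told apart.

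**Figure D1:**
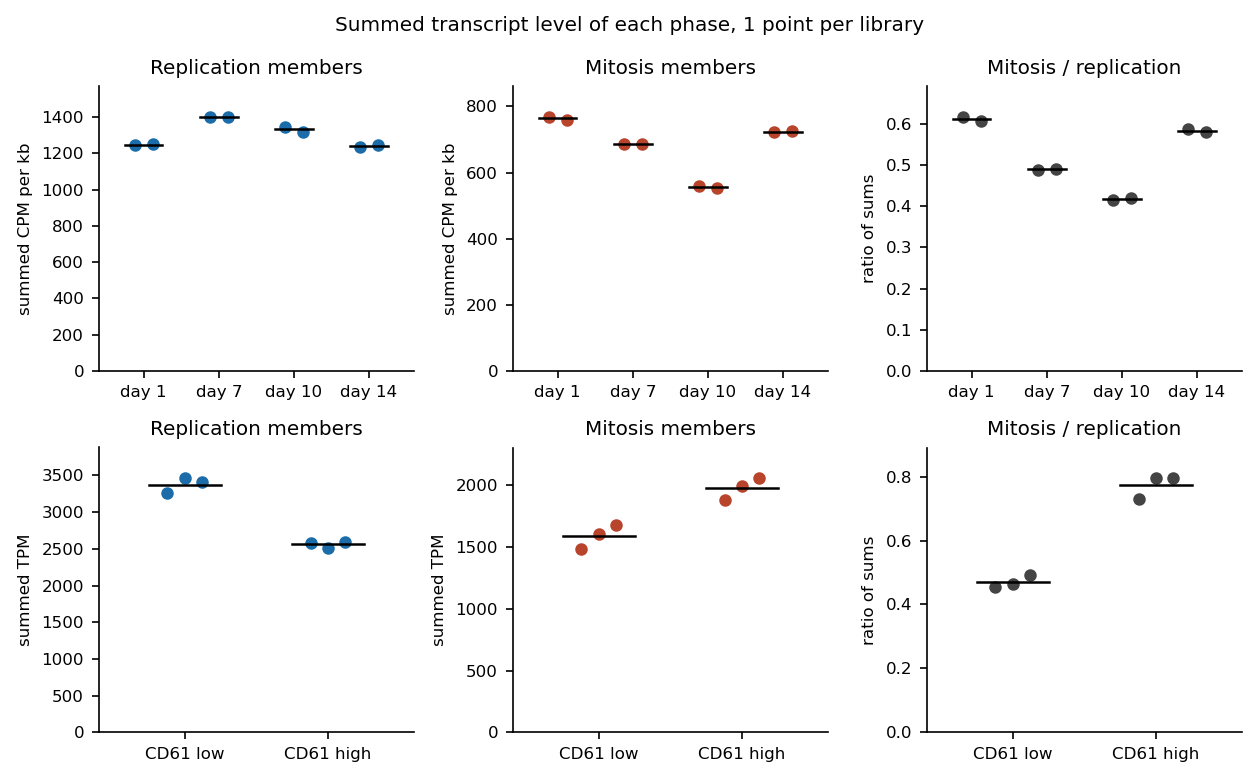
Summed level of the 24 replication genes (left) and the 23 mitosis genes (middle) and the ratio of the sums (right), with 1 point per library and a line at the group mean. The upper row gives the 8 libraries of the course in CPM per kb, where the ratio is lowest at day 10 (0.416 and 0.420), and the lower row the 6 sorted libraries in TPM, where the ratio is higher in all 3 CD61 high libraries (0.729 to 0.795) than in the CD61 low libraries (0.456 to 0.492).

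Days of the course were compared with limma on log2(CPM + 1) across 12725 genes, with p-values adjusted by Benjamini-Hochberg over all of them. A gene passed at an adjusted p below 0.05, and a second rule asked for an adjusted p below 0.01 and a log2 fold change past 1 in either direction. Log2 fold changes are differences on the log2(CPM + 1) scale, which understates the change of low genes, and ± gives their standard error. Comparisons with day 1 share the day 1 libraries, and those of day 10 with day 7 and of day 14 with day 10 share the day 10 libraries. In the comparisons in which a member passed the test, it did not change direction under any scaling tried.

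At day 7 the replication genes were mostly above day 1 and the mitosis genes mostly below it. Of the 24 replication genes, 14 rose and 4 fell, with 6 not passing and a median log2 fold change of 0.16, where 28.8% of all genes tested rose and 37.2% fell with a median of -0.05. Of the 23 mitosis genes, 2 rose (Nusap1 and Ccnb2) and 17 fell, with a median of -0.17. Of these calls, that of Ccnb2 was lost without day 1 replicate 2 or either day 7 library (0.08 to 0.11). The fall of Mki67 did not pass without day 1 replicate 1 or either day 7 library. The falls of Cdc20 and Cenpf did not pass without day 1 replicate 1 or day 7 replicate 2, that of Birc5 without day 1 replicate 1 or day 7 replicate 1, and that of Cenpa without day 1 replicate 2 or day 7 replicate 1 (-0.12 to -0.07). Under TMM scaling and with edgeR on the recovered reads 12 mitosis genes fell. No member passed the second rule, which 9.11% of all genes passed. At day 10 the replication list was split, with 11 higher and 9 lower than at day 1, beside 37.5% and 34.6% of all genes, and with a median of 0.05 that turned to -0.01 under quantile normalization. None of the 23 mitosis genes was higher at day 10 and 19 were lower, with a median of -0.52 against 0.02 for all genes. Plk1 alone passed the second rule there, which 10.5% of all genes passed.

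By day 14 the mitosis genes stood nearer to day 1. Compared with day 1, 5 mitosis genes were higher and 12 lower, with a median of -0.12, and 9 replication genes were higher and 8 lower, with a median of -0.02 that turned to 0.01 under TMM scaling and under quantile normalization. Of all genes, 36.2% were higher and 39.8% lower, with a median of -0.03. Tyms (replication) and Plk1 (mitosis) passed the second rule, both lower, beside 13.4% of all genes. The fold change of Tyms fell short of this rule under quantile normalization (-0.990), TMM scaling (-0.966), edgeR on the recovered reads (-0.979), and without day 1 replicate 1 (-0.982) or day 14 replicate 2 (-0.991), and that of Plk1 under TMM scaling (-0.988) and without day 14 replicate 1 (-0.975). From day 7 to day 10, 20 of the 23 mitosis genes fell and none rose, with a median of -0.30, where 36.5% of all genes rose and 23.3% fell and 2.22% passed the second rule. From day 10 to day 14, 22 of 23 rose and none fell, with Top2a not passing and a median of 0.42, where 27.5% of all genes rose and 35.5% fell with a median of -0.04 and 2.96% passed the second rule. The summed chondrocyte markers and the summed osteoblast and osteocyte markers, given above, were also lowest at day 10. Single markers did not share this. Acan (26.8 and 28.7 CPM), Col1a1 and Pdpn were lowest at day 10, whereas Sox9 (37.4 and 36.5 CPM), Bglap, Spp1 and Runx2 were highest at day 10, and the rest were neither. The part of these markers in the changes of the mitosis genes was not tested. Replication genes had 3 higher and 10 lower from day 7 to day 10 (median -0.07) and 6 higher and 10 lower from day 10 to day 14 (median -0.07). This last count turned to 10 higher and 8 lower (median -0.01) both under TMM scaling and with edgeR on the recovered reads. No member passed the second rule in either of these steps. The day 10 against day 7 counts depend on scaling, since 61.1% of all calls were higher by library totals and 48.9% after TMM scaling, under which 18 replication genes were lower.

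**Figure D2:**
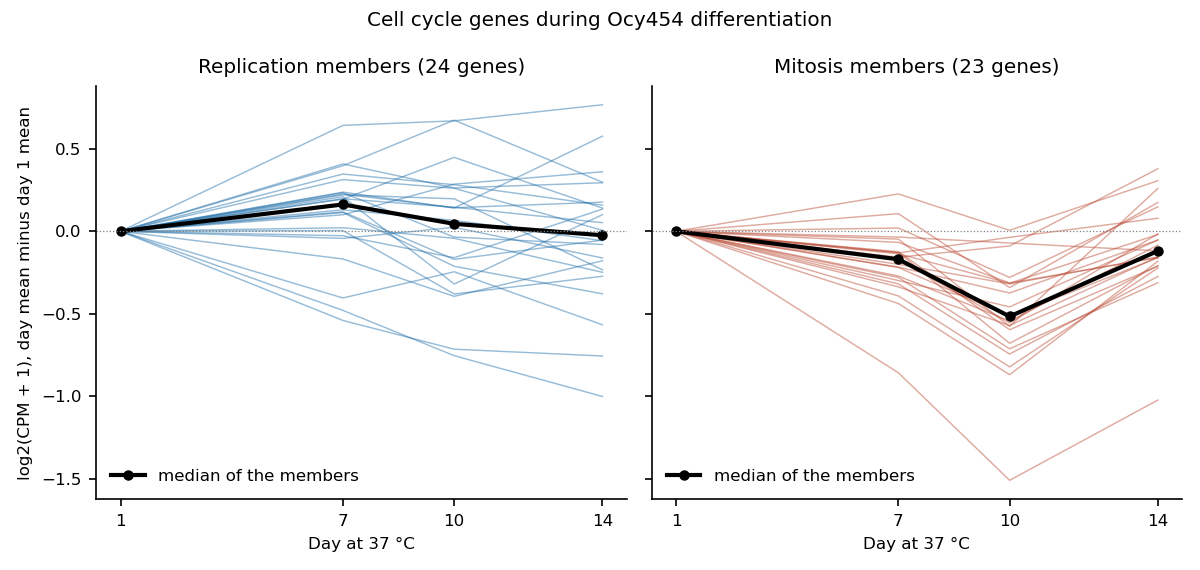
Change from day 1 of each replication gene (left, 24 lines) and each mitosis gene (right, 23 lines), as the mean log2(CPM + 1) of 2 libraries at each day minus that of day 1, with the median of the list in black. The mitosis median reaches -0.52 at day 10 and returns to -0.12 at day 14, and the lowest red line is Plk1 (-1.51 at day 10), while the replication median stays between -0.02 and 0.16.

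By level, 19 of the 23 mitosis genes had their lowest day mean at day 10 and 17 had their highest at day 1. Of the 24 replication genes, 13 were highest at day 7, 10 lowest at day 1 and 9 lowest at day 14. The lowest and highest days were not counted over all genes. These counts therefore have no background and only describe the members.

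Within the helicase, the subunits did not move together. Mcm2 stood at 462 and 454 CPM on day 1, 570.2 and 568 on day 7, 552 and 546 on day 10, and 458 and 462 on day 14. It was higher on the middle days than on the outer ones without overlap, and the day 14 and day 1 libraries overlapped (0.01 ± 0.03, adjusted p = 0.886). Mcm6, the most abundant subunit per length at day 1, rose to 672 and 650.0 CPM on day 7 from 483 and 513 on day 1 (0.41 ± 0.04) and was still higher at day 14 (598 and 624 CPM, 0.29 ± 0.04). Mcm3 followed Mcm2 in rising at day 7 (0.35 ± 0.03) and remained higher at day 14 (0.16 ± 0.03). Mcm5 rose slightly at day 7 (0.11 ± 0.03, a call lost without day 7 replicate 2, adjusted p = 0.0509) and was lower at day 14 than at day 1 (381 and 381 to 289 and 297 CPM, -0.38 ± 0.03). Mcm4 and Mcm7 were also lower at day 14 (-0.25 ± 0.04 and -0.23 ± 0.04), although Mcm7 had risen at day 7 (0.22 ± 0.04). Of the 6 subunits, which form 1 ring, 2 were above day 1 at day 14 (Mcm3 and Mcm6) and 3 below it (Mcm4, Mcm5 and Mcm7), while Mcm2 did not pass. Of all genes, 36.2% were higher and 39.8% lower in that comparison, so this split is near the background.

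Among the genes that load and start the helicase, Cdt1 showed the largest rise. Cdt1, which brings MCM to origins, stood at 134 and 136 CPM on day 1, 179 and 178 on day 7, 217 and 216 on day 10, and 169 and 164 on day 14 (0.67 ± 0.04 at day 10, adjusted p = 8.56e-15). Its partner Cdc6 stood at 51.0 and 56.4 CPM on day 1, 58.0 and 58.5 on day 7, 48.2 and 46.9 on day 10, and 48.7 and 54.7 on day 14. The 2 loaders thus diverged at day 10, with Cdt1 at its highest and Cdc6 below both day 7 libraries (-0.29 ± 0.06 against day 7, adjusted p = 0.000126). Against day 1 the fall of Cdc6 at day 10 (-0.17 ± 0.06, adjusted p = 0.0105) did not pass without day 1 replicate 2 (-0.10) or without day 10 replicate 2 (-0.15). Gins2, a GINS subunit with uncertain counts, moved widely, from 87.1 and 94.0 CPM on day 7 to 63.3 and 61.5 on day 10 and 80.9 and 86.9 on day 14. Gins1 rose at day 7 (0.23 ± 0.07, a call lost without day 1 replicate 2 or day 7 replicate 2, at 0.21 and 0.20) and fell again at day 10 (-0.27 ± 0.07 against day 7). Cdc45 rose at day 7 (0.20 ± 0.04) and did not differ from day 1 beyond the test at day 14 (0.05 ± 0.04, adjusted p = 0.279). Mcm10, which helps to start the fork, was lower at day 10 than at day 1 (-0.16 ± 0.05) and higher at day 14 than at day 10 (0.29 ± 0.05).

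Tyms and Rrm1, enzymes of deoxynucleotide supply, had the largest falls of the replication genes at day 14. Tyms, thymidylate synthase, stood at 104.2 and 101.4 CPM on day 1, 73.1 and 73.8 on day 7, 58.3 and 62.8 on day 10, and 51.2 and 50.5 on day 14. Each later day lay below the one before it without overlap, and the change from day 1 to day 14 was -1.001 ± 0.05 (adjusted p = 2.42e-16), the largest of the 24 in that comparison. Rrm1, the large subunit of ribonucleotide reductase, stood at 463 and 473 CPM on day 1, 321 and 322 on day 7, 285 and 284 on day 10, and 277 and 276 on day 14. Most of its fall was therefore complete by day 7 (-0.54 ± 0.03), and at day 14 it was -0.76 ± 0.03 (adjusted p = 1.26e-16). Rrm2, the small subunit, whose transcript is known to peak in S phase, stood at 128 and 125 CPM on day 1, 110.3 and 114 on day 7, 100.1 and 91.8 on day 10, and 115 and 108 on day 14. It rose from day 10 to day 14 (0.22 ± 0.05, adjusted p = 0.000217), a step in which Rrm1 did not pass (-0.04 ± 0.03), and 43.3% of its exon bases lie under a lncRNA on the other strand.

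Regulators of the G1/S step changed in opposite directions. E2f1, the transcription factor that switches on the replication genes, stood at 92.4 and 87.0 CPM on day 1, 137 and 144 on day 7, 144 and 143 on day 10, and 152 and 155 on day 14. All later libraries were above both day 1 libraries, and the change at day 14 was 0.77 ± 0.04 (adjusted p = 4.02e-15), the largest rise of the 24. The 2 genes of cyclin E, which activates Cdk2 at the start of S phase, parted. Ccne1 stood at 24.6 and 25.2 CPM on day 1, 17.7 and 19.5 on day 7, 21.8 and 19.9 on day 10, and 15.2 and 17.8 on day 14, whereas Ccne2 stood at 64.4 and 62.3, 77.5 and 72.3, 67.9 and 72.1, and 93.2 and 96.8. At day 14 Ccne1 was lower (-0.57 ± 0.08, adjusted p = 7.14e-07) and Ccne2 higher (0.58 ± 0.05, adjusted p = 3.94e-11) than at day 1, with no overlap in either.

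Of the genes of the fork and of new chromatin, Pcna, the sliding clamp, stood at 154 and 145 CPM on day 1, 173 and 169.9 on day 7, 207 and 202 on day 10, and 167 and 163 on day 14. Day 10 was its highest point (0.45 ± 0.04 against day 1, adjusted p = 1.08e-10), and the small rise at day 14 (0.14 ± 0.04, adjusted p = 0.00214) did not pass without day 1 replicate 2 (0.10, adjusted p = 0.0773). Chaf1a, a subunit of the histone chaperone that follows the fork, stood at 127 and 130.3 CPM on day 1, 150.3 and 151 on day 7, 140.2 and 144 on day 10, and 141 and 149.5 on day 14, above day 1 throughout. Uhrf1, which maintains DNA methylation behind the fork, did not pass at day 7 (0.00 ± 0.04) and was lower at day 10 (164 and 159 CPM against 209.8 and 212 on day 1, -0.38 ± 0.04). Slbp, which binds histone mRNA, rose from 109 and 109 CPM on day 1 to 133 and 149 on day 14 (0.36 ± 0.05). Pola1, the catalytic subunit of the priming polymerase, did not pass at day 14 (139 and 132 CPM at day 14 against 141 and 141 at day 1, -0.06 ± 0.04, adjusted p = 0.194). Fen1, the flap endonuclease, passed no comparison of days at its low and uncertain level (-0.16 ± 0.10 at day 14, adjusted p = 0.135).

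Among the mitosis genes, the 6 grouped here under mitotic entry (Plk1, Cdc25c, Ccna2, Ccnb1, Ccnb2 and Cdk1) were all lower at day 10 than at day 1 and rose from day 10 to day 14. Of all genes, 34.6% were lower at day 10 than at day 1, and 27.5% rose from day 10 to day 14. Plk1, polo-like kinase 1, stood at 85.6 and 87.4 CPM on day 1, 46.5 and 48.0 on day 7, 29.6 and 29.8 on day 10, and 40.7 and 43.5 on day 14. It had the largest fall of all 47 genes, -1.51 ± 0.05 at day 10 (adjusted p = 4.27e-19), rose from day 10 to day 14 (0.49 ± 0.05), and remained lower at day 14 (-1.02 ± 0.05, adjusted p = 1.59e-15). Cdc25c, the phosphatase that activates Cdk1, stood at 29.8 and 29.5 CPM on day 1, 23.8 and 24.7 on day 7, 18.1 and 17.3 on day 10, and 24.5 and 22.97 on day 14. Ccna2, cyclin A2, stood at 233 and 224 CPM on day 1, 187 and 191 on day 7, 160.1 and 153 on day 10, and 212 and 219 on day 14. Both were lowest at day 10 without overlap, and at day 14 Cdc25c was lower than at day 1 (-0.31 ± 0.07). Ccna2 did not pass at day 14 (-0.08 ± 0.04, adjusted p = 0.0521) but passed without day 14 replicate 2 (-0.11, adjusted p = 0.0246). Ccnb1, cyclin B1, stood at 39.9 and 40.4 CPM on day 1, 34.8 and 33.9 on day 7, 28.2 and 27.4 on day 10, and 34.8 and 37.0 on day 14. Its difference at day 14 (-0.16 ± 0.06, adjusted p = 0.016) did not pass without day 1 replicate 1 (-0.17), day 1 replicate 2 (-0.15) or day 14 replicate 1 (-0.12). Ccnb2, the second B-type cyclin, rose slightly at day 7 (0.11 ± 0.04), fell to 94.2 and 95.6 CPM at day 10 and was above day 1 at day 14 (136 and 136 against 123 and 118 CPM, 0.18 ± 0.04). Cdk1, their shared kinase, had the smallest change of this group at day 10 (-0.31 ± 0.04), with values of 147 and 152 CPM on day 1, 141 and 144 on day 7, 120.0 and 120.1 on day 10, and 129 and 138 on day 14 (-0.16 ± 0.04 at day 14, adjusted p = 0.00102).

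Among genes of mitotic exit and of the spindle checkpoint, Ube2c rose furthest after day 10. Ube2c, the ubiquitin-conjugating enzyme of the anaphase-promoting complex, stood at 95.6 and 93.9 CPM on day 1, 91.8 and 91.5 on day 7, 65.5 and 61.1 on day 10, and 109 and 118 on day 14. Its rise from day 10 to day 14 was the largest of the 47 genes (0.84 ± 0.05, adjusted p = 4.26e-14), and it ended above day 1 (0.26 ± 0.05, adjusted p = 1.77e-05). Cdc20, the activator of the same complex, fell from 157 and 149 CPM on day 1 to 94.1 and 96.3 on day 10 and stood at 131 and 134 on day 14, below both day 1 libraries (-0.21 ± 0.04). The checkpoint kinase gene Bub1 had a rise above day 1 at day 14 (0.15 ± 0.05, adjusted p = 0.00571) that did not pass without day 1 replicate 1 (0.13). Bub1b, whose protein holds back Cdc20, stayed below day 1 at day 14 (-0.15 ± 0.04). Ttk, the kinase at the head of the checkpoint, was lowest at day 10 (30.6 and 34.0 CPM against 45.2 and 44.2 at day 1) and did not pass at day 14 (-0.05 ± 0.06, adjusted p = 0.417).

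Of the spindle genes, Hmmr, a microtubule-binding protein of the spindle, stood at 87.6 and 83.7 CPM on day 1, 61.9 and 64.0 on day 7, 47.6 and 45.3 on day 10, and 75.5 and 75.3 on day 14. Day 10 was lowest without overlap (-0.87 ± 0.05 against day 1), and the rise to day 14 was 0.69 ± 0.05 (adjusted p = 2.75e-12). Aurka, the spindle pole kinase, was also lowest at day 10 (86.3 and 89.3 CPM on day 1, 48.7 and 49.7 on day 10, 75.2 and 74.9 on day 14), and its activator Tpx2 smaller changes (-0.32 ± 0.04 at day 10 and 0.16 ± 0.04 from day 10 to day 14). Nusap1, which bundles spindle microtubules, differed from these, at 87.3 and 87.2 CPM on day 1, 102 and 103 on day 7, 88.2 and 87.0 on day 10, and 109 and 107 on day 14. It was above day 1 at days 7 and 14 and did not pass at day 10 (0.01 ± 0.04, adjusted p = 0.901, and -0.03 under quantile normalization).

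Of the chromosomal passenger complex, which corrects the attachment of chromosomes, the list holds Cdca8, Aurkb and Birc5, none of which passed at day 14 against day 1. Cdca8 stood at 96.0 and 100.1 CPM on day 1, 88.8 and 85.3 on day 7, 67.3 and 65.5 on day 10, and 93.1 and 101.02 on day 14, where the day 14 libraries span those of day 1 (-0.02 ± 0.05, adjusted p = 0.773, and 0.02 under TMM scaling). Its partners Aurkb and Birc5 did not pass at day 14 either (-0.05 ± 0.05, and -0.02 ± 0.04 with 0.02 under TMM scaling), after falling at day 10 (-0.37 ± 0.05 and -0.31 ± 0.04). The kinetochore genes diverged. Cenpf, a large protein of the outer kinetochore, stood at 192 and 177 CPM on day 1, 170.0 and 161 on day 7, 181 and 166 on day 10, and 262 and 220.4 on day 14, so that day 14 was the highest without overlap (0.38 ± 0.06, adjusted p = 1.3e-06). Cenpa, the histone H3 variant of the centromere, and Cenpe, a kinetochore motor, were lower at day 14 than at day 1 (-0.21 ± 0.04 and -0.27 ± 0.04) after falls at day 10 (-0.60 ± 0.04 and -0.74 ± 0.04).

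Mki67 and Top2a, widely used as markers of cycling cells, had the smallest ratios of highest to lowest day mean among the mitosis genes. Mki67 stood at 299 and 267 CPM on day 1, 257 and 259 on day 7, 272 and 279 on day 10, and 319 and 279 on day 14. The day 1 libraries overlap those of days 10 and 14 and lie above those of day 7 (-0.13 ± 0.05, adjusted p = 0.023, a call lost without day 1 replicate 1 at -0.05 or either day 7 library at -0.14 and -0.13). The day 14 difference from day 1 did not pass (0.08 ± 0.05, adjusted p = 0.151), and it passed without day 1 replicate 1 (0.16) or day 14 replicate 2 (0.17). Its rise from day 10 (0.12 ± 0.05, adjusted p = 0.0449) did not pass without day 10 replicate 1 (0.10), day 10 replicate 2 (0.13), day 14 replicate 1 (0.02) or either day 7 library (0.12). Top2a, the topoisomerase that untangles chromosomes, stood at 559 and 566 CPM on day 1, 553 and 545 on day 7, 544 and 526 on day 10, and 532 and 504 on day 14. It drifted down to a difference of -0.12 ± 0.04 at day 14 (adjusted p = 0.00509), which did not pass without day 1 replicate 2 (-0.11, adjusted p = 0.0522). Neither gene had the dip at day 10 that most of the mitosis list showed.

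The sorted cells were compared with edgeR's quasi-likelihood test on counts with TMM scaling across 12077 genes, with the same call rules. In CD61 high cells the mitosis genes were higher and part of the replication genes lower. Of the 23 mitosis genes, 21 were higher and none lower in CD61 high than in CD61 low cells, with log2 fold changes from 0.20 to 0.87 and a median of 0.55, where 26.3% of all genes were higher and 23.8% lower with a median of 0.00. Of the 24 replication genes, 2 were higher (Rrm2 and E2f1) and 10 lower, with 12 not passing and a median of -0.19. The second rule, passed by 9.22% of all genes, was passed by Ccne1 alone. The scaling bears on these counts, since TMM factors were 1.096 to 1.128 for CD61 low and 0.895 to 0.909 for CD61 high libraries. By library size alone 12.4% of all genes were higher and 50.5% lower, the median of all genes moved to -0.29 and the share of calls that were higher fell from 52.4% to 19.7%. On that scale 11 mitosis genes were higher and none lower (median 0.25, or 0.54 above that of all genes), and 1 replication gene was higher and 20 lower (median -0.49, or -0.20 relative to all genes). Osteoblast, osteocyte and chondrocyte markers moved with the sort in the same libraries, as given above, and their part in these differences was not tested.

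Among the mitosis genes Ube2c differed most. Ube2c read 96.4, 101.4 and 105 TMM-scaled CPM in CD61 low and 158, 200.5 and 193 in CD61 high libraries (0.87 ± 0.09, adjusted p = 3.74e-05). Ccna2 read 158, 164 and 179 against 258, 298 and 289 (0.76 ± 0.08, adjusted p = 3.37e-05), and Hmmr read 36.8, 38.4 and 40.8 against 61.7, 64.5 and 66.8 (0.73 ± 0.08, adjusted p = 2.51e-05). Cenpf read 89.1, 106 and 138 in CD61 low and 208, 154 and 213 in CD61 high libraries (0.78 ± 0.16, adjusted p = 0.00251), with a wider spread in both groups. In all 4 genes, named as the largest changes of the list, each CD61 high library lay above each CD61 low library. The same held for 3571 of the 12077 genes tested.

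Of the other genes of mitotic entry, Plk1, Cdk1, Cdc25c and Ccnb2 passed and Ccnb1 did not. Plk1 read 42.7, 43.0 and 38.3 in CD61 low and 54.3, 68.9 and 62.5 in CD61 high libraries (0.58 ± 0.10, adjusted p = 0.000698). Cdk1 read 48.5, 59.0 and 53.1 against 61.8, 80.8 and 72.9 (0.42 ± 0.11, adjusted p = 0.00837), and Cdc25c read 16.4, 18.0 and 18.8 against 20.1, 24.2 and 26.4 (0.41 ± 0.12, adjusted p = 0.0148). Groups did not overlap in any of the 3, as in 3571 of all 12077 genes tested. However, Cdk1 did not pass with an offset for transcript length (0.32, adjusted p = 0.0548), and Cdc25c did not pass without CD61 low replicate 1 (0.35) or CD61 high replicate 3 (0.32). Ccnb1 was the mitosis gene that differed least, at 56.7, 60.1 and 61.6 against 59.9, 70.9 and 74.1 (0.20 ± 0.09, adjusted p = 0.0881), with 1 CD61 high library inside the CD61 low range. It passed without that library, CD61 high replicate 1 (0.29, adjusted p = 0.0143), and read -0.10 by library size alone. Ccnb2 was higher (0.52 ± 0.10). By library size alone Plk1 passed (0.28, adjusted p = 0.0326). Cdk1 (0.12, adjusted p = 0.359), Cdc25c (0.11, adjusted p = 0.439) and Ccnb2 (0.22, adjusted p = 0.0666) did not on that scale.

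Spindle, passenger, kinetochore and checkpoint genes all passed with TMM scaling. By library size alone Cdca8, Tpx2, Cenpe, Ttk, Bub1b, Bub1 and Cdc20 did not (0.07 to 0.22, adjusted p = 0.0581 to 0.44). Nusap1 read 62.7, 71.6 and 77.5 in CD61 low and 107, 103 and 115 in CD61 high libraries (0.62 ± 0.09, adjusted p = 0.000243), and Cdca8 read 49.1, 45.7 and 45.9 against 58.0, 64.1 and 66.7 (0.42 ± 0.08, adjusted p = 0.00133). Of the other spindle genes, Aurka was higher by 0.72 ± 0.08 and Tpx2 by 0.37 ± 0.07. Birc5 and Aurkb, the passengers with Cdca8, were higher by 0.66 ± 0.09 and 0.58 ± 0.09, and Cenpa and Cenpe by 0.63 ± 0.10 and 0.40 ± 0.10. Ttk, Bub1b and Bub1 of the checkpoint were higher by 0.52 ± 0.10, 0.47 ± 0.09 and 0.43 ± 0.08, and Cdc20, their target, by 0.39 ± 0.09.

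Top2a read 314, 362 and 385 in CD61 low and 505, 477 and 570.2 in CD61 high libraries (0.55 ± 0.09, adjusted p = 0.000815), without overlap. Mki67 read 256, 294 and 441 against 616, 352 and 501 (0.57 ± 0.22, adjusted p = 0.0517) and was the other mitosis gene that did not pass. Its groups overlapped, with CD61 low replicate 3 above CD61 high replicate 2, and it passed without either of these libraries (0.81 and 0.76).

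**Figure D3:**
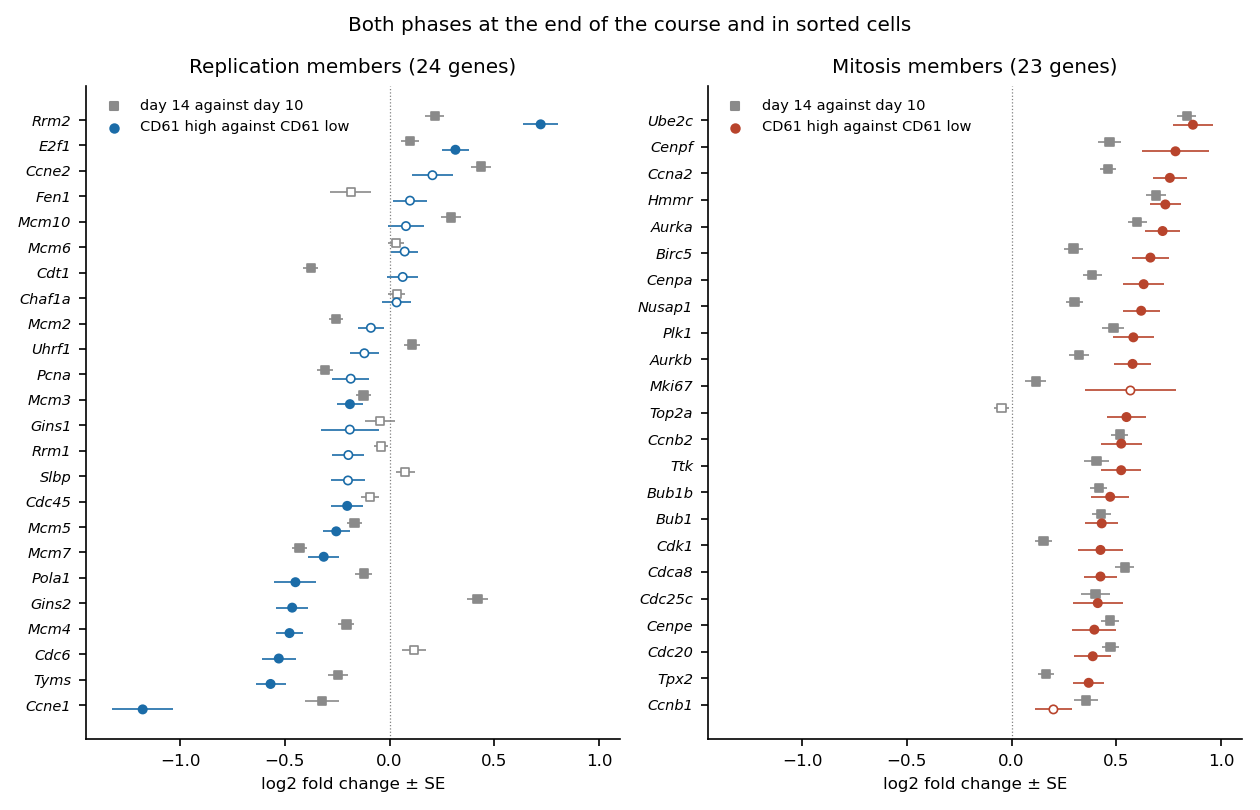
Log2 fold change ± SE of each replication gene (left) and mitosis gene (right) between CD61 high and CD61 low cells (circles) and between days 14 and 10 (grey squares), with filled symbols for an adjusted p below 0.05. Of the 23 mitosis genes, 21 circles and 22 squares lie to the right and are filled, while 10 filled circles of the replication genes lie to the left, with Ccne1 furthest (-1.18); by library size alone Ccnb1 and the 6 hollow replication circles right of 0 turn to the left.

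Among the replication genes the sort divided the G1/S regulators and the nucleotide enzymes. Ccne1 read 11.8, 11.8 and 12.4 in CD61 low and 4.34, 5.81 and 5.71 in CD61 high libraries (-1.18 ± 0.15, adjusted p = 9.17e-05), less than any CD61 low library throughout. Ccne2 read 41.2, 49.1 and 51.6 against 56.9, 50.4 and 56.3, with 1 CD61 high library inside the CD61 low range, and did not pass (0.20 ± 0.10, adjusted p = 0.105, and -0.10 by library size alone). E2f1 read 143, 134 and 133 against 166, 169.6 and 173 (0.31 ± 0.07, adjusted p = 0.00282), with no overlap, but 0.01 by library size alone.

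Rrm2 read 73.7, 76.9 and 80.4 in CD61 low and 116, 124 and 140.4 in CD61 high libraries (0.72 ± 0.08, adjusted p = 6.09e-05), the only replication gene that was also higher by library size alone (0.42, adjusted p = 0.00119). Tyms read 58.2, 60.2 and 61.9 against 41.0, 38.9 and 41.7 (-0.57 ± 0.07, adjusted p = 0.000107). These 2 enzymes of the same supply thus differed in opposite directions without overlap. Rrm1 read 192, 201 and 218 against 185, 166 and 183 and did not pass (-0.20 ± 0.08, adjusted p = 0.0526). It passed without CD61 low replicate 1 (-0.24, adjusted p = 0.0398), with DESeq2 (adjusted p = 0.0416) and by library size alone (-0.50, adjusted p = 0.000188).

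Of the helicase and its loaders, Cdc6 read 72.8, 72.2 and 69.4 in CD61 low and 47.3, 46.9 and 54.4 in CD61 high libraries (-0.53 ± 0.08, adjusted p = 0.000343), without overlap. Mcm2 read 481, 505 and 483 against 454, 464 and 463 and did not pass (-0.09 ± 0.06, adjusted p = 0.262), although each CD61 high library was below each CD61 low library. Mcm4 (-0.48 ± 0.07), Mcm7 (-0.31 ± 0.07), Mcm5 (-0.25 ± 0.06) and Mcm3 (-0.19 ± 0.06) were lower, Mcm3 only narrowly (adjusted p = 0.03), not passing without CD61 low replicate 1 or 2 or CD61 high replicate 1 or 3 (-0.20 to -0.17). Mcm6 and Mcm10 did not pass (0.07 ± 0.07 and 0.08 ± 0.09) and turned to -0.23 and -0.22 by library size alone. Gins2 was lower (-0.47 ± 0.08), Gins1 did not pass (-0.19 ± 0.14), and Cdc45 was lower at the margin (-0.20 ± 0.08, adjusted p = 0.046), a call lost on leaving out any 1 library but CD61 high replicate 2 (-0.23 to -0.15). Cdt1, the other loader, did not pass (0.06 ± 0.07, and -0.24 by library size alone).

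Of the fork and chromatin genes, Pola1 was lower (77.2, 89.5 and 97.8 against 71.1, 61.3 and 61.3, -0.45 ± 0.10, adjusted p = 0.00386). Pcna read 277, 299 and 246 against 221, 259 and 243 and did not pass (-0.19 ± 0.09, adjusted p = 0.108). It passed without CD61 low replicate 3 (-0.28, adjusted p = 0.0228) and by library size alone (-0.49, adjusted p = 0.00107). Chaf1a was the replication gene that differed least, at 160.4, 168 and 171 against 180.3, 161 and 169.9 (0.03 ± 0.07, adjusted p = 0.717, and -0.27 by library size alone). Slbp, Uhrf1 and Fen1 did not pass (-0.20 ± 0.08, -0.12 ± 0.07 and 0.10 ± 0.08), Slbp passing without CD61 low replicate 3 (-0.29). By library size alone Slbp (-0.50, adjusted p = 0.000472) and Uhrf1 (-0.42, adjusted p = 0.000564) passed and Fen1 turned to -0.20.

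**Figure D4:**
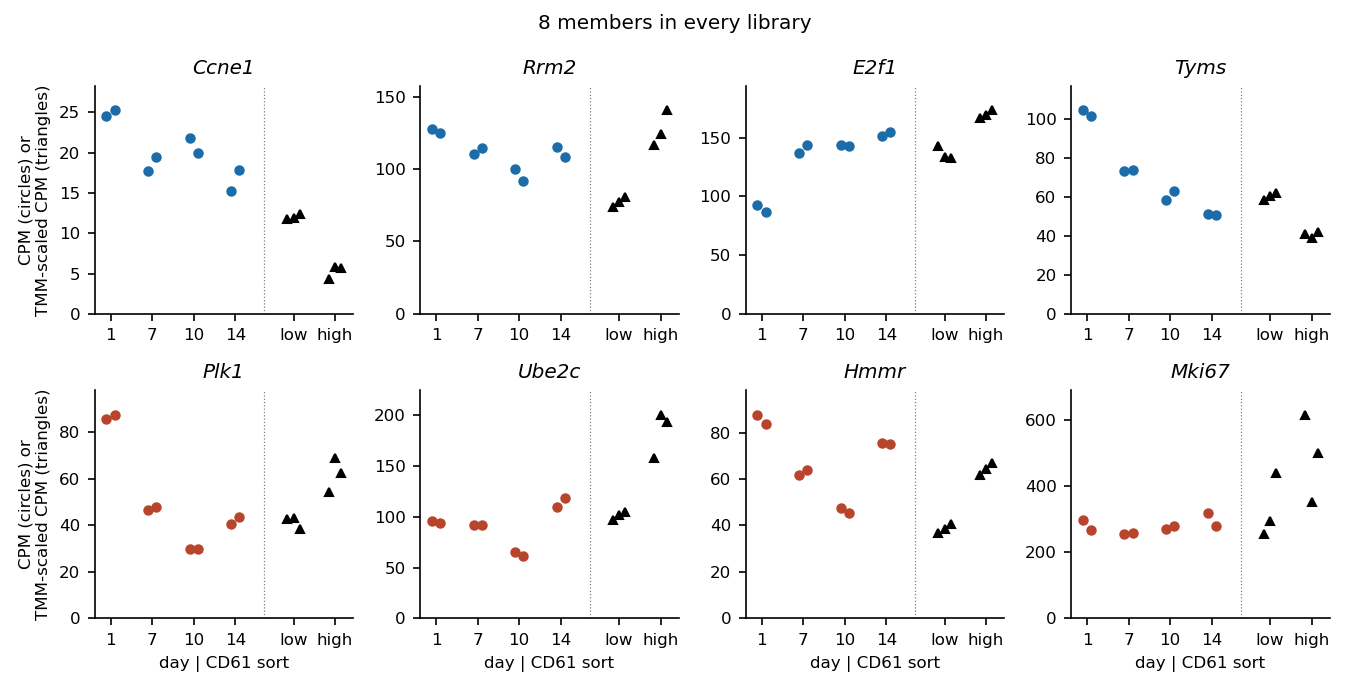
Values of 4 replication genes (upper row) and 4 mitosis genes (lower row) in every library, as CPM by day in the course (circles) and TMM-scaled CPM by CD61 sort (triangles), on axes that start at 0. Circles and triangles come from different counting methods and are not compared with each other; Ube2c, Hmmr and Plk1 are lowest at day 10 and higher in CD61 high than in CD61 low libraries, while Tyms falls over the days and Mki67 overlaps between the groups.

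The last step of the course and the sort share no libraries, so their calls can be set side by side. Of the 22 mitosis genes that rose from day 10 to day 14, 20 were also higher in CD61 high cells, and these are 20 of the 21 that were higher there. With library size alone in the sort, 10 of the 22 were higher in both. Of the 11445 genes tested in both, 12.3% were higher in both and 12.2% lower in both, and by library size alone these shares were 6.63% and 23.5%. Of the 10 replication genes that fell from day 10 to day 14, 7 were among the 10 that were lower in CD61 high cells (Mcm3, Mcm4, Mcm5, Mcm7, Tyms, Ccne1 and Pola1). This count of genes lower in both was 5 with TMM scaling of the course and 10 with library size alone in the sort. The fall of Pola1 in the course did not pass without day 10 replicate 1 (adjusted p = 0.113) or day 14 replicate 2 (adjusted p = 0.0764). Rrm2 and E2f1 were higher in both, with the rise of E2f1 in the course small (0.10 ± 0.04, adjusted p = 0.0418) and not passing without day 10 replicate 1, day 10 replicate 2 or day 14 replicate 2 (0.08 to 0.10). Gins2 rose in the course (0.42 ± 0.05) and was lower in the sort. Across the 47 genes, which are not independent replicates, the log2 fold changes of the 2 comparisons had a Pearson r of 0.74, but within the phases r was 0.39 over 24 replication genes and 0.40 over 23 mitosis genes, so most of the pooled value lies between the phases.

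Other genes of the same machineries were counted from lists set out alongside the members. Of 59 other mitosis genes, 43 were lower and 4 higher at day 10 than at day 1, and 44 rose and 4 fell from day 10 to day 14. In CD61 high cells 37 were higher and 1 was lower (19 and 7 by library size alone, beside 12.4% and 50.5% of all genes). Of all genes, 34.6% were lower and 37.5% higher at day 10 than at day 1, 27.5% rose and 35.5% fell from day 10 to day 14, and 26.3% were higher and 23.8% lower in the sort. At day 14 against day 1, 19 of the 59 were higher and 18 lower, near the 36.2% and 39.8% of all genes. Among them were Cdc25b, a phosphatase of mitotic entry (95.7 to 226 CPM, 1.23 ± 0.04), and Incenp, the scaffold of the passenger complex (142 to 90.6 CPM, -0.64 ± 0.04). Of those higher in CD61 high cells, the largest differences were those of Psrc1 (1.34 ± 0.14), Fam83d (1.16 ± 0.11) and Kif11, the spindle motor Eg5 (1.06 ± 0.11). The 1 lower gene was Cenpk, a kinetochore subunit (-1.21 ± 0.17). From day 10 to day 14 the largest rises were those of Anln, the contractile ring protein anillin (275 to 569 CPM, 1.04 ± 0.04), Fam83d (0.72 ± 0.06) and Ndc80, an outer kinetochore protein (0.70 ± 0.05). Of 40 other replication genes, against the same shares of all genes, 17 rose and 9 fell from day 10 to day 14, and in CD61 high cells 3 were higher and 18 lower. By library size alone none of the 40 were higher and 33 lower, where 12.4% and 50.5% of all genes were. Lowest in CD61 high cells were Orc2 of the origin recognition complex (-0.75 ± 0.08) and the nucleotide enzyme Dut (-0.70 ± 0.11), and the histone chaperone Asf1b was highest (0.39 ± 0.10).

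Of 23 regulators around E2F, the pocket proteins and MuvB, 12 were higher and 7 lower at day 14 than at day 1, beside 36.2% and 39.8% of all genes. Rb1, the retinoblastoma protein that restrains E2F, had the largest rise, from 19.2 ± 1.90 to 70.3 ± 1.27 CPM (mean ± SD, n = 2; log2 fold change 1.82 ± 0.06), followed by Tfdp2, an E2F partner (0.70 ± 0.04), and E2f2 (0.63 ± 0.09). E2f3, an activator E2F (-0.77 ± 0.06), and E2f7, a repressor E2F (-0.62 ± 0.05), fell. In the sort 7 of the 23 were higher and 2 lower, beside 26.3% and 23.8% of all genes, so that the higher share was near the background. By library size alone 2 were higher and 10 lower, beside 12.4% and 50.5%. Foxm1, the transcription factor of the mitosis genes, was higher in CD61 high cells, at 456 against 259 TMM-scaled CPM (0.81 ± 0.09, adjusted p = 3.49e-05), with E2f5, a repressor E2F (0.73 ± 0.13), and Fzr1, an activator of the anaphase-promoting complex (0.48 ± 0.08). E2f3 (-0.82 ± 0.10) and Tfdp1, another E2F partner (-0.33 ± 0.07), were lower.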

How the data were processed

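Libraries were made from total RNA, and those of the sort were polyA-selected. The course was aligned with STAR and counted with HTSeq by the authors, who deposited CPM values, whole reads (to within 0.01 of a read) scaled to a fixed library total, beside a gene length used here only for levels per kb. For the sort, extracted with another kit, the authors quantified with Salmon on GRCm39, release 104, and deposited estimated counts and TPM per transcript. Versions of these tools are not given in the sources used here. Of 116747 transcripts, 115556 were matched to genes of GENCODE M39 and summed. TPM sums served for levels only.

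CPM was compared as log2(CPM + 1) with limma 3.58.1 (eBayes with trend, all 8 libraries) for genes above 1 CPM in at least 1 library. Estimated counts were summed by gene, rounded and compared with edgeR 4.0.16 (quasi-likelihood test, TMM over all genes) for genes whose normalized count reached 5 in each of the 6 libraries, in R 4.3.3. Both were tested on simulated data. Alternatives were other pseudocounts, filters, scalings and tools (DESeq2 1.42.0 for the sort), a replicate block, and leaving out each library. Every member may be named; those given by library are Mcm2, Pcna, Cdc6, E2f1, Mki67, Top2a, Ccnb1, Cdk1, the 4 largest changes and the smallest of each phase at day 14 and in the sort, and further members added for context after their values were seen. Of the other lists some of the largest changes are named, and 1 gene is not reported here. The members and lists were chosen with earlier results of these data known. Motif counts are exact string matches in RefSeq promoters of GRCm38.p6, another build than that of the sorted files, so no coordinate was carried between them. Depth limits the lowest genes most, among them Fen1 in the course and Ccne1 and Gins1 in the sort.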

Additional observations from a re-analysis of the deposited data

How the results depend on the processing

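Of 204 recomputed values of the main counts and shares, 199 stayed within 1.5 times the value reported or its interval. Of 1078 further recomputed values, 968 were classed as the same, 64 as moved, 15 as reversed, 17 as stronger and 14 as weaker. From day 7 to day 10, 18 replication genes were lower under TMM scaling and with edgeR on the recovered reads, against 10. From day 10 to day 14 the same alternatives gave 10 replication genes higher, against 6. In the sort by library size alone, 20 replication genes were lower, against 10, and 11 mitosis genes higher, against 21. The share of mitosis promoters with a CHR match was 36.8% in the 250 bases before the start, against 78.9%. Of the 22 genes given by the rule for values by library, 14 (day 14 against day 1) and 11 (sort) kept direction and side of the threshold under all alternatives. Directions turned for Cdca8 at day 14 (0.0198 under TMM scaling and 0.0193 with edgeR on the recovered reads) and, by library size alone, for Ccnb1 (-0.10), Ccne2 (-0.10) and Chaf1a (-0.27) in the sort. On leaving out 1 library at a time, values at day 14 against day 1 ran from -0.136 to 0.0289 for Cdc6, -0.0737 to 0.0431 for Cdca8, -0.00826 to 0.0197 for Mcm2 and -0.0159 to 0.174 for Mki67, and in the sort from -0.00862 to 0.0712 for Chaf1a. Leaving out a library changed the call of 3 to 5 of the 24 replication genes and of 2 to 6 of the 23 mitosis genes in each comparison. Causes of these shifts were not tested. The sources used here do not say that equal replicate numbers mark the same group of cells, and deviations of same-numbered libraries correlated at -0.03 to 0.06 in the course and -0.32, 0.22 and -0.06 in the sort, so the fit without the block was kept. With the replicate block, 22 mitosis genes were higher and 8 replication genes lower in the sort (Mki67 passed, adjusted p = 0.0376, and Mcm3 and Cdc45 did not, adjusted p = 0.0739 and 0.0888), 15 replication genes rose at day 7, 20 mitosis genes were lower at day 10 than at day 1, and no other count moved among those compared with day 1 or between days.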
